A study of Mus musculus with 8 samples.

Results

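The Bcl2 family is a group of proteins that decide at the outer mitochondrial membrane whether a cell dies by apoptosis, and 9 of its genes were read on 8 one-colour mouse arrays. The 4 anti-apoptotic members were Bcl2, Bcl2l1 (which encodes Bcl-xL), Bcl2l2 (Bcl-w) and Mcl1. The 5 pro-apoptotic members were Bcl2l11 (Bim), Bax, Bak1, Bad and Bid. They were found by name among all probes that are not controls, which gave 19 probes among the 41048 with a value on every array, 10 of them for anti-apoptotic and 9 for pro-apoptotic genes. All 9 genes were among the 22905 genes and unnamed probes tested. Of these 9, 5 (Bcl2, Bcl2l1, Bcl2l11, Bak1 and Bad) were well above background on all 8 arrays, and Bid passed the filter on dim probes only through WT cells of secondary recipients.

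The cells were haematopoietic stem cells (HSC) of donor origin, sorted by flow cytometry from mice that had been transplanted with them. Donor cells were wild type (WT) or lacked E47 (KO), and were taken from primary or from secondary recipients, that is, mice of a first or of a following round of transplantation. Each of the 4 groups had 2 arrays. E47 is a basic helix-loop-helix transcription factor made from the gene Tcf3. How E47 was removed, the strain and age of the mice, the number of cells and the surface markers of the sort are not stated in the labels. No label says that both arrays of a group came from separate mice or sorts, and p-values therefore reflect the array-to-array spread, which may be technical. The 4 WT arrays shared 1 slide and the KO groups were on 2 further slides, 1 per kind of recipient. Slide and genotype therefore cannot be told apart, and neither can slide and kind of recipient in KO cells.

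Anti-apoptotic members hold the pore formers in check at the mitochondrion. Bax and Bak1 are those pore formers, and once active they release cytochrome c, which switches on the caspases. Bcl2l11, Bad and Bid belong to the BH3-only members: Bcl2l11 binds all the main anti-apoptotic members, Bad binds Bcl2, Bcl-xL and Bcl-w but not Mcl1, and Bid is cut by caspase-8 and carries the signal of death receptors to the mitochondrion. Mcl1 is known to be required for the survival of HSC.

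The probes are 60 bases long, and 5 of them that lie in coding sequence are shown because the regions they read are the ones through which members bind each other or form pores, or because the results turn on them. Capitals mark the codons of the conserved core of the BH3 helix in Bcl2l11 and of the BH1 region in Bak1.
Bcl2: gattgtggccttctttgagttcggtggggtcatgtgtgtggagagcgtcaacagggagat
Bcl2l1: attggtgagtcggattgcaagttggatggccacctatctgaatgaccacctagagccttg
Bcl2l11: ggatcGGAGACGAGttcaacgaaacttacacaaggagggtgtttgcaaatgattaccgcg
Bak1: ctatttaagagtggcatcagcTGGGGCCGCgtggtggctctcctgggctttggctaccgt
Bax: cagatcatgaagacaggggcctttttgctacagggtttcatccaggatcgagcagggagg
In the mm8 build of the files, the Bcl2 probe lies at chr1:108539940-108539999 and the Bcl2l1 probe at chr2:152520890-152520949, both on the minus strand. The Bak1 probe lies at chr17:26748876-26748935 on the minus strand. The Bcl2l11 probe spans an intron, at chr2:127838598-127849693 on the plus strand, and the Bax probe does so at chr7:45334141-45334296 on the minus strand. The Bcl2, Bak1 and Bax sequences represent their genes below, while the Bcl2l1 and Bcl2l11 sequences belong to additional probes of genes represented by another one. Bid has a single probe, at chr6:120859065-120859124 on the minus strand.

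E47 binds E-boxes, short sites with the letters CANNTG. One form that E proteins are known to prefer is CAGCTG, which reads the same on both strands. Another known preferred form is CAGGTG, whose letters on the opposite strand are CACCTG. Promoter windows from RefSeq (GRCm38.p6), from 250 bases before to 50 after each start, were at hand for all 9 genes in 13 windows. CAGCTG was in 1 of the 13, at base 29 after the start of Bcl2l11, and in 16.3% of all 32851 windows. The other preferred form, on either strand, was in 1 of the 13, at Bad, and in 20.2% of all. CANNTG, which includes both forms, was in 8 of the 13, for 5 genes (Bad, Bax, Bcl2l1, Bcl2l11 and Mcl1), and in 72.3% of all. The preferred forms are shown in capitals in the following sequences of Bad (chr19:6941611-6941860, plus strand) and Bcl2l11 (chr2:128126054-128126083, plus strand), and the Bid window (chr6:120916825-120917074, minus strand), which holds none of these letters, is shown because Bid had the largest differences between groups.
Bad: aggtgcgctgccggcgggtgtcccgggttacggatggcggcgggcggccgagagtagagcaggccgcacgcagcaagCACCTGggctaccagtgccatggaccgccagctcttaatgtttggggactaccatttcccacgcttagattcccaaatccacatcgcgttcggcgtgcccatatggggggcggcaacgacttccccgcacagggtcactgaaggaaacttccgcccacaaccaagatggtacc
Bcl2l11: gcactgggtcacCAGCTGgttggagctctg
Bid: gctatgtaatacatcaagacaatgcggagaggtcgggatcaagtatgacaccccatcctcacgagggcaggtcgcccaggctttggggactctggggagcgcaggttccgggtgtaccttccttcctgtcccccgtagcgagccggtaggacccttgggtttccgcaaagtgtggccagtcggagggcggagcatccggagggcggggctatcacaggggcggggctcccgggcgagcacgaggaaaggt
A match of letters is a description of the window and not a bound site.

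Levels below are log2 of the processed intensity minus the 75th percentile of that array, so a level of 0 is the brightness that 75% of spots lie under, and levels of different probes cannot be set against each other. A pair of arrays stood apart: 41.9% of spots were well above background on WT primary replicate 2 and 35.4% on KO primary replicate 2, against 72.2% to 90.7% on the other 6. They are called the dim arrays below. Of the 19 member probes, 6 to 16 were well above background on the primary arrays and 15 to 19 on the secondary arrays. Granulocyte markers moved with the kind of recipient: 9 or 10 of 10 were well above background on the primary arrays, with a summed level of 228 to 15800 times the 75th percentile, against 7 to 9 and 6.49 to 25.2 on the secondary arrays, and none was at 0. The dim arrays held the sums of 10500 and 15800, and their partners 247 and 228. Summed megakaryocyte markers (7.34 to 39.6 primary, 3.62 to 5.52 secondary) and mast cell and basophil markers (1.91 to 9.53, 0.241 to 1.49) did not overlap either. The megakaryocyte sum did not hold for every marker. Pf4, Gp9 and Ppbp were well above background on all secondary arrays except KO secondary replicate 2. Of the primary arrays, Pf4 and Gp9 were so on WT primary replicate 1 alone, and Ppbp on none. Itga2b and Gp1bb were so on all 8 arrays. The unscaled intensity of Gp1bb was 376 to 714 on the primary and 369 to 567 on the secondary arrays. The sums of monocyte, B cell, T and NK cell and erythroid markers overlapped. Of the 12 HSC markers, all were well above background on every secondary array, with a summed level of 53.4 to 83.8. On the primary arrays 5 to 12 of them were, with 12.1 to 1780, both ends being those of the dim arrays. The brighter of the 2 Tcf3 probes was well above background on all 8 arrays, KO arrays included, and whether it lies in the deleted part is not known, so it does not check the genotype.

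**Figure D1:**
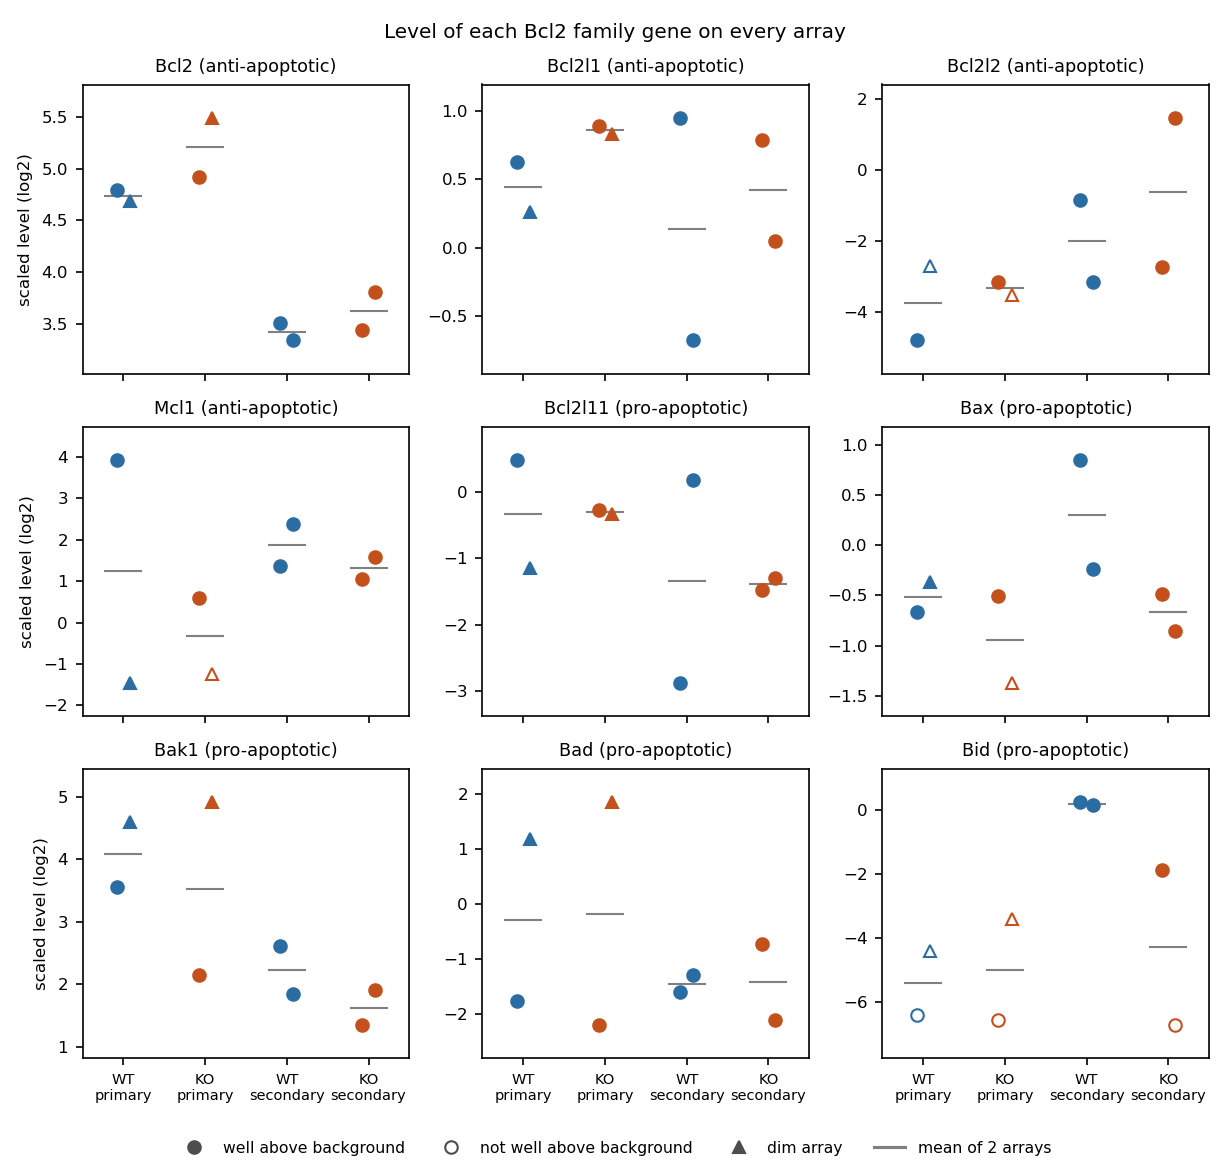
Scaled log2 level of the probe that represents each gene (y axis) on every array, by genotype and recipient (x axis; blue WT, orange KO), with the mean of both arrays as a grey line. Open symbols are not well above background and triangles are the dim arrays. Bcl2 lay at 4.69 to 5.49 on the primary and 3.34 to 3.81 on the secondary arrays, and Bid was open on all 4 primary arrays.

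Bcl2, the first survival gene of the family to be described, had an SD between the arrays of a pair of 0.06 to 0.40 (n = 2). Its level was 4.79 and 4.69 in WT primary, 4.92 and 5.49 in KO primary, 3.51 and 3.34 in WT secondary, and 3.44 and 3.81 in KO secondary cells. Every primary array lay above every secondary array, while within each kind of recipient the genotypes lay within 1 unit of each other. The level of Bcl2l1, whose product Bcl-xL guards mitochondria in red cell precursors and many other cells, was 0.63 and 0.26 in WT primary, 0.89 and 0.83 in KO primary, 0.95 and -0.68 in WT secondary, and 0.79 and 0.05 in KO secondary cells. The primary groups did not overlap, but the secondary WT pair alone spread over a range wider than all other arrays together.

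Mcl1, a short-lived protein kept up by steady transcription, was at 3.92 and -1.45 in WT primary, 0.60 and -1.23 in KO primary, 1.36 and 2.38 in WT secondary, and 1.06 and 1.58 in KO secondary cells. Both of its low values came from the dim arrays, and on KO primary replicate 2 it was not well above background. The level of Bcl2l2, the member named for Bcl-w, was -4.79 and -2.70 in WT primary, -3.13 and -3.50 in KO primary, -0.83 and -3.13 in WT secondary, and -2.71 and 1.48 in KO secondary cells. It was well above background on all 4 secondary arrays and on 2 of 4 primary arrays, the dim arrays being the exceptions. KO secondary replicate 2 stood well above its partner.

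Among the pore formers, Bak1 was bright everywhere. Its level was 3.56 and 4.59 in WT primary, 2.15 and 4.91 in KO primary, 2.61 and 1.84 in WT secondary, and 1.35 and 1.90 in KO secondary cells. The WT primary arrays lay above all secondary arrays, whereas KO primary replicate 1 lay among them. Bax, which shuttles between cytosol and mitochondrion, was at -0.67 and -0.37 in WT primary, -0.51 and -1.37 in KO primary, 0.85 and -0.24 in WT secondary, and -0.49 and -0.85 in KO secondary cells. The WT secondary arrays were its 2 highest, and the value of KO primary replicate 2 was not well above background. Bax has a single probe, spotted 10 times per array, and those spots had a log2 SD of 0.0265 to 0.196 on the arrays where it was well above background. That spotting error is smaller than the SD of 0.77 between the WT secondary arrays.

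Of the BH3-only members, Bid differed most between groups. Its processed intensity was 3.79 and 1.73 in WT primary, 3.72 and 1.86 in KO primary, 1007 and 806 in WT secondary, and 181 and 4.10 in KO secondary cells. The corresponding levels were -6.40 and -4.40, -6.58 and -3.40, 0.25 and 0.15, and -1.87 and -6.72. The probe was well above background on 3 arrays, both of WT secondary cells and KO secondary replicate 1, and on none of the 4 primary arrays. Both WT secondary arrays lay above all others, and the KO secondary arrays disagreed with each other about whether the gene was measured at all.

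Bcl2l11, the member that kills blood cells deprived of cytokines, was at 0.49 and -1.14 in WT primary, -0.27 and -0.32 in KO primary, -2.88 and 0.19 in WT secondary, and -1.47 and -1.29 in KO secondary cells. The KO pairs were close together and lay inside the range of the WT pairs. Bad, which growth factor signalling keeps inactive by phosphorylation, was at -1.76 and 1.19 in WT primary, -2.19 and 1.85 in KO primary, -1.60 and -1.29 in WT secondary, and -0.73 and -2.10 in KO secondary cells. Its 2 high levels were those of the dim arrays, where its unscaled intensity of 83.2 and 70.6 was close to the 94.5 and 78.2 of their partners.

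The first question of the series is what the loss of E47 changed, and no member passed in primary or secondary recipients. In limma's fit over all genes, 0 of the 22905 passed an adjusted p of 0.05 in either comparison (0.0% of all genes, and 0 of 9 members), while 907 (3.96%) and 1232 (5.38%) had an unadjusted p under 0.05. Changes are given relative to the median gene, which itself stood 0.29 (primary) and 0.45 (secondary) higher in KO on the log2 scale. The p-values test the change before that centring.

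In secondary recipients, Bid was the member with the largest difference. It was lower in KO than in WT, with a log2 change of -4.95 relative to the median gene, and both KO arrays lay below both WT arrays. Bid entered the fit only because it was above background in WT secondary cells, the group where it is high. The text therefore gives no p or interval for it in any comparison. Without KO secondary replicate 2, on which the probe was not well above background, the difference was -2.47, and without replicate 1 it was -7.38. The interaction value of genotype and recipient for Bid was -5.17, with 5 of its 8 values not well above background. Of the other 8 members, Bax alone had groups that did not overlap with KO lower, against 12.3% of all genes.

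Bax was 1.43 lower in KO secondary cells (SE 0.97, 95% interval -3.69 to 0.84, limma adjusted p = 0.985), and Bak1 was 1.06 lower (SE 1.20, adjusted p = 0.985, limma). Bad and Bcl2l11 had values of -0.42 and -0.49. The 4 pro-apoptotic members other than Bid thus all had values below the median gene, with a median of -0.77, and 3 of the 4 anti-apoptotic members did, with a median of -0.21. This split depended on which probes stood for the genes. With the mean of all probes of a gene, 1 of those 4 pro-apoptotic members was below the median gene, with a median of 0.53, and all 4 anti-apoptotic members were, with a median of -1.83. The mean for Bad then includes a probe designed to a transcript on the opposite strand. Without that probe, a setting chosen after seeing the data, Bad had -0.41, and 2 of the 4 were below the median gene with a median of 0.0.

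The anti-apoptotic members in secondary recipients spanned -1.0 for Mcl1 to 0.91 for Bcl2l2. Bcl2 differed by -0.25 (SE 0.91, 95% interval -2.38 to 1.88), and Bcl2l1 by -0.17 (SE 1.01, interval -2.53 to 2.20). Intervals this wide include a change of 1 log2 unit in either direction, so the arrays do not show that these genes were alike in both genotypes.

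In primary recipients, Mcl1 had the largest value, -1.83 (SE 1.75, 95% interval -5.92 to 2.25, limma adjusted p = 0.995), and it was 1.0 without WT primary replicate 1 and -4.77 at the lowest when another array was left out. The remaining members lay between -0.83 (Bak1) and 0.18 (Bcl2). Bcl2 and Bcl2l1 were higher in both KO arrays than in both WT arrays, 2 of 9 members against 16.9% of all genes. Bid was below the level called well above background in both groups, so no fold is given. The median was 0.14 over the anti-apoptotic members and -0.48 over the pro-apoptotic members other than Bid. These were -0.22 and -0.11 without KO primary replicate 1, and -0.29 and -0.43 with the mean of all probes. Without the opposite-strand Bad probe, the last of these was -0.16.

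Over both kinds of recipient, KO and WT arrays overlapped for all 9 members, whereas 1.31% of all genes were higher and 0.489% lower in KO without overlap. No member passed, as no gene did (0.0%), and 1072 genes (4.68%) had an unadjusted p under 0.05. Mcl1 had -1.38 (SE 1.17), and -2.46 to -0.17 when 1 array was left out, with -0.17 without WT primary replicate 1. Bax had -1.03 (SE 0.64), and -1.37 to -0.72. Bid had -2.37, and -3.36 to -0.92. The remaining 6 members lay between -0.90 and 0.56. The interaction values of the members other than Bid lay between -0.82 (Bax) and 0.73 (Mcl1), with SE of 1.29 to 2.47, and none of the 9 passed (0.0% of all genes), with 857 genes (3.74%) at an unadjusted p under 0.05.

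**Figure D2:**
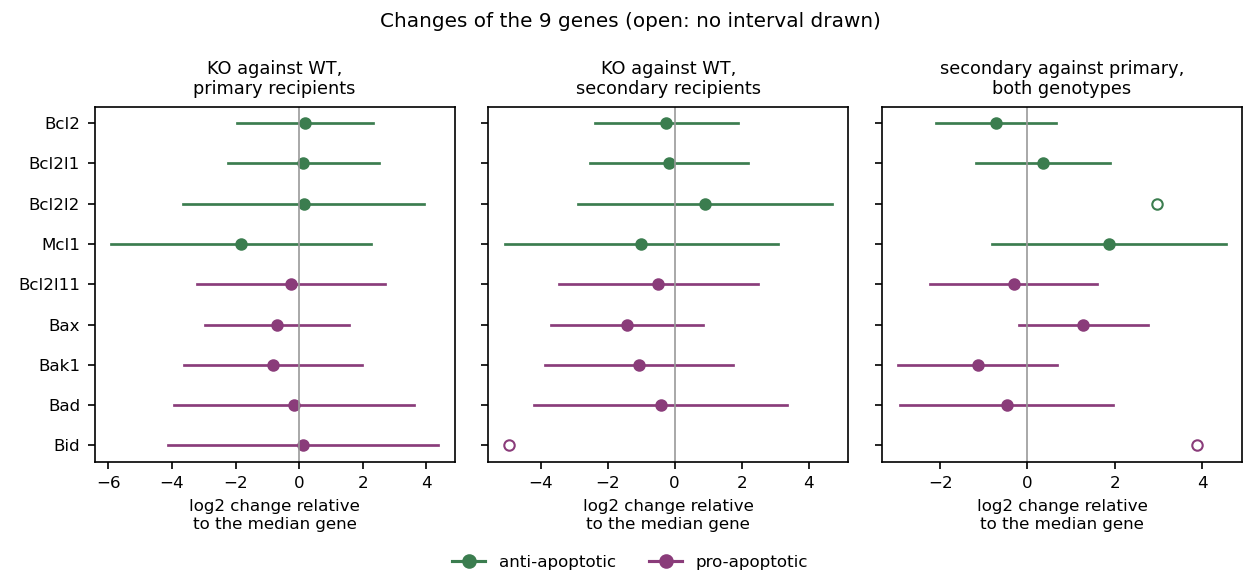
Log2 change of each gene relative to the median gene (x axis) with its 95% interval (filled points), for KO against WT in primary and in secondary recipients and for secondary against primary recipients over both genotypes. Green stands for anti-apoptotic and purple for pro-apoptotic genes. Open points without an interval are genes that passed the filter on dim probes through 1 side of that comparison alone, which are Bid in secondary recipients (-4.95) and Bid and Bcl2l2 in the recipient comparison (3.88 and 2.96).

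The second comparison sets secondary against primary recipients, in each genotype and over both. It gave larger differences but again no call: 0 of 9 members and 0.0% of all genes passed in each of the 3 fits, with 2745 genes (12.0%) in WT, 1384 (6.04%) in KO and 4405 (19.2%) over both genotypes at an unadjusted p under 0.05. Bid and Bcl2l2 passed the filter on dim probes only through secondary recipients, and are left out of the counts of higher members that follow. The shares of all genes still include genes that passed in that way. In WT, 1 of the other 7 members (Bax) was higher in secondary recipients without overlap, against 15.3% of all genes. Of all 9 members, 2 (Bcl2 and Bak1) were lower, against 40.1%. In KO, 1 of the 7 (Mcl1) was higher, against 12.7% of all genes. Of all 9, 4 (Bcl2, Bcl2l1, Bcl2l11 and Bak1) were lower, against 28.5%. The median gene was 0.99, 0.53 and 0.73 lower in secondary recipients in the respective fits. Summed levels of granulocyte, megakaryocyte, and mast cell and basophil markers differed along with this comparison as given above, though not every megakaryocyte marker went with its sum. In these bulk samples they cannot separate more cells of a type from more of their RNA per cell. Their part in the members' values was not tested.

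Bid was 6.59 log2 units higher in WT secondary than WT primary cells relative to the median gene, a comparison that lies within 1 slide. Since Bid was not well above background in WT primary cells, its fold is given as a bound: WT secondary cells had at least 14.8-fold the lowest level that counts as well above background there. The bound replaces each level of the lower side by the lowest level that was well above background on its array, unless the probe's own level was higher. Levels of the higher side are used as measured, and in WT secondary cells both were well above background. In KO cells the value was 1.22, and it turned to -0.89 without KO secondary replicate 1 and to -0.23 without KO primary replicate 1. Over both genotypes Bid had 3.88, and 2.54-fold by the same calculation. That is not a strict bound, because the higher side includes KO secondary replicate 2, which was not well above background. Without the 2 dim arrays Bid had 4.94.

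Bcl2l2 had positive values in both genotypes, 2.76 in WT (1.68 to 4.04 when 1 array was left out) and 3.22 in KO (1.02 to 5.63, with 1.02 without KO secondary replicate 2). Over both it was 2.96 (2.05 to 3.81). It was not well above background on the dim arrays, and no test is given for the reason stated above. Its other probe, nearer the end of the transcript, had the same sign in both genotypes, but Pearson's r between the probes was -0.18. That probe was not well above background on KO secondary replicate 2, where it read 3.32 in processed intensity and the representing probe 1200. Bax had 1.28 over both genotypes (SE 0.64, 95% interval -0.20 to 2.75), of which 1.82 in WT (1.35 to 2.50 when 1 array was left out) and 0.80 in KO (0.08 to 1.37).

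Bcl2 and Bak1 were the 2 members with an unadjusted p under 0.05 over both genotypes, both lower in secondary recipients, against 13.7% of all genes. Bcl2 stood 0.72 below the median gene (SE 0.60, 95% interval -2.09 to 0.65, unadjusted p = 0.0407, limma adjusted p = 0.252), and its 4 secondary arrays lay below its 4 primary arrays, 1 of 9 members against 12.7% of all genes. Its interval relative to the median gene includes 0, and the value was 0.33 after normexp background correction, 0.30 after quantile normalization and 0.62 with the mean of its probes. Bak1 stood 1.14 below (SE 0.79, 95% interval -2.96 to 0.67, unadjusted p = 0.0439, limma adjusted p = 0.256) and had 0.13 with the mean of its probes.

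Mcl1 and Bad depended on the dim arrays in this comparison. Mcl1 had 1.86 over both genotypes (SE 1.17, limma adjusted p = 0.597) with all arrays and -0.17 without the dim arrays, and Bad had -0.47 and 1.04. Bcl2l1 had 0.35 and Bcl2l11 -0.32, each under its SE of 0.67 and 0.84.

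The probes of 1 gene often gave different pictures. Of the 7 members with more than 1 probe, those whose probes all had the same sign were 1 in KO against WT in primary recipients (Bad), 3 in secondary recipients (Bcl2, Bcl2l1 and Mcl1), and 4 in secondary against primary recipients over both genotypes (Bcl2l1, Bcl2l2, Mcl1 and Bad). Pearson's r between probes of a gene over the 8 arrays ran from -0.75 for Bak1 to 0.52 for Bad, as a description of arrays that share their scaling. For Mcl1, the further probe read 1.87, 1.73, 2.39 and 491 in processed intensity on the primary arrays, while the representing probe read 4866, 13.3, 542 and 8.38. Of these 4 arrays, the one with the lowest intensity by one probe thus had the highest by the other.

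For Bak1, the second probe had 0.61 in primary and 1.85 in secondary recipients for KO against WT, opposite to the -0.83 and -1.06 of the coding probe shown above. For Bcl2, the probe at base 7109 of its transcript, spotted 10 times, had -4.43 for KO against WT in secondary recipients with both KO arrays below both WT arrays, whereas the coding probe had -0.25. It was not well above background on KO secondary replicate 2, where its mean intensity was 2.31 against 296 on replicate 1. The Bcl2l1 coding probe shown above had -2.65 there against -0.17 for the representing probe at base 129. The Bcl2l11 probe over the BH3 codons had 1.03, where the representing probe had -0.49, and it was not well above background on WT secondary replicate 2. The third Bcl2l11 probe had 1.36, and was well above background on KO secondary replicate 1 alone of the secondary arrays. The second Bad probe was designed to a transcript on the opposite strand, so its values are not counted as Bad RNA with the same certainty.

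**Figure D3:**
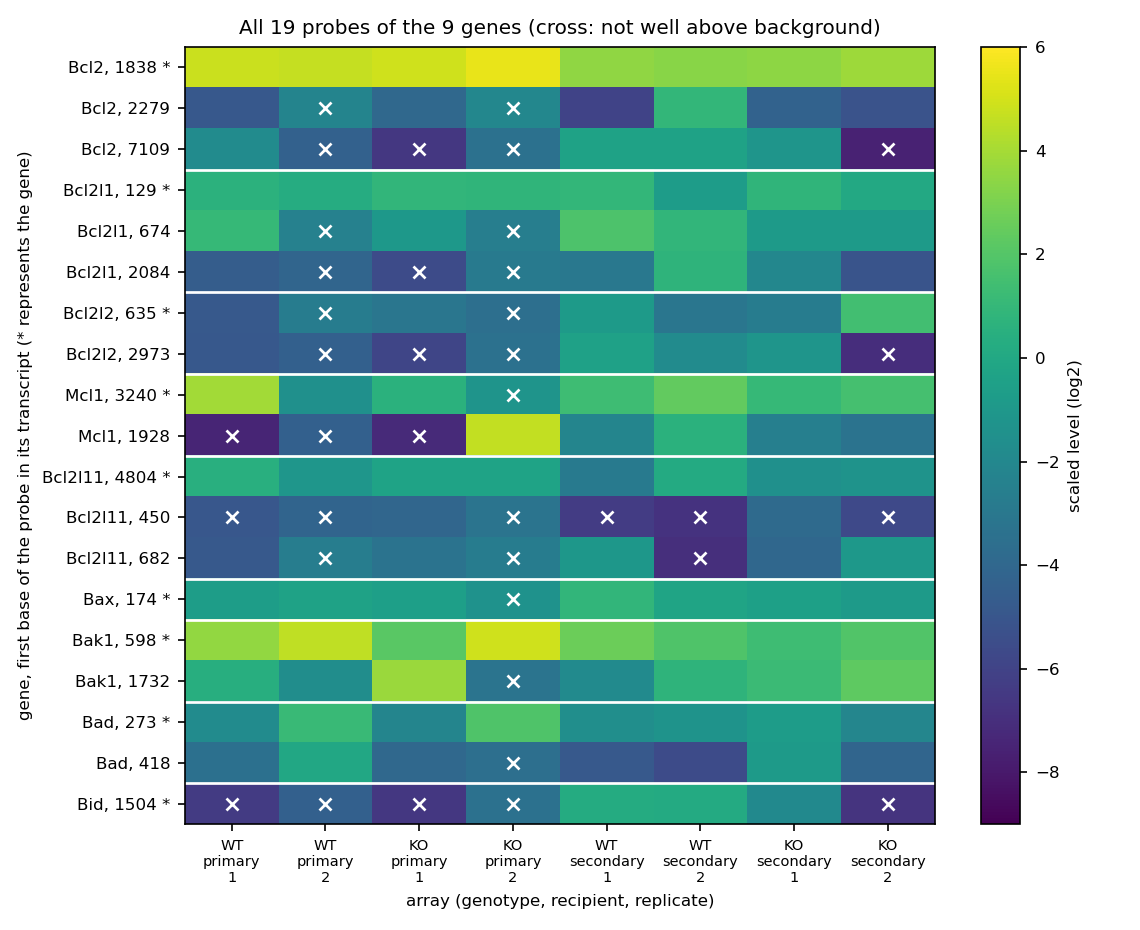
Scaled log2 level (colour) of all 19 probes (rows, labelled with the gene and the probe's first base in its transcript, an asterisk marking the representing probe) on the 8 arrays (columns). A white cross marks a value not well above background. The rows of a gene often differ in pattern, as in Mcl1, where the cell of KO primary replicate 2 is 4.64 for one probe and -1.23 for the other.

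Other genes of the pathway were read from 4 lists with 51 genes, of which 47 were on the array and 42 tested. None of the 42 passed in any of the 7 comparisons (0.0% of all genes). In KO against WT, 3 of 42 had an unadjusted p under 0.05 in primary recipients, all higher in KO, against 1.98% of all genes. These were Huwe1, the ubiquitin ligase that marks Mcl1 for degradation (2.61, SE 0.94), Cycs, which encodes cytochrome c (3.45, SE 1.43), and the death receptor gene Tnfrsf1a (4.31, SE 1.78). The representing probe of Huwe1 was well above background on 1 KO and 1 WT primary array, so its value takes in an undetected level on each side. Tnfrsf1a was well above background on 1 KO and no WT primary array. It was 5.56-fold higher in KO by the calculation described above, which is not a strict bound here, since it takes in an undetected KO level. In secondary recipients 1 of 42 did, Casp2, lower in KO by 2.93 relative to the median gene (SE 1.04, limma adjusted p = 0.925), against 1.69% of all genes. Over both kinds of recipient 2 of 42 were higher in KO, Huwe1 (1.68, SE 0.69) and Tnfrsf1a (2.95, SE 1.27). There 1 was lower, Vdac3 (-5.95, SE 2.19), and the share in either direction was 4.68% of all genes. Vdac3 read 32269 in processed intensity on WT primary replicate 2, a dim array, and 263 on its partner.

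Casp2 encodes an initiator caspase that can cut Bid. Its level was -2.71 and -0.85 in WT primary, -1.80 and -1.0 in KO primary, 2.19 and 1.99 in WT secondary, and -0.17 and -0.60 in KO secondary cells. Its WT secondary arrays were the 2 highest, in a gene named here for its low p in secondary recipients.

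For secondary against primary recipients over both genotypes, 12 of the 42 genes passed the filter on dim probes only through secondary recipients. Of the other 30, 2 (Huwe1 and Casp2) were higher at an unadjusted p under 0.05. The share was 2.93% of all 15139 genes above background in a primary group by any of their probes. Of all 42, 5 (Bbc3, Bcl2l14, Bnip3, Tnfrsf10b and Vdac1) were lower, against 13.7% of all genes tested. Huwe1 was counted there through another probe than the one that represents it. The representing probe was well above background on 1 array of each primary group, so no test is given for it. Its level was -4.36 and -4.31 in WT primary, -0.98 and -1.88 in KO primary, 1.48 and 1.70 in WT secondary, and 2.35 and 3.07 in KO secondary cells. All secondary arrays were above all primary arrays, and the difference was 5.76. The probe was not well above background on the dim arrays.

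Casp2 had 3.17 (SE 0.84). Usp9x, which removes ubiquitin from Mcl1 and so opposes Huwe1, had 3.93, and Ywhaz, a 14-3-3 protein of the kind that holds phosphorylated Bad in the cytosol, had 3.69. Aifm1, the mitochondrial apoptosis-inducing factor, had 5.09. These last genes passed the filter only through secondary recipients, so no test is given: Aifm1 was well above background on 1 of 4 primary arrays, and Usp9x and Ywhaz were on 2 of 4. Among genes above background in a primary group, 9 of 11 of the apoptosome and caspase list lay above the median gene of all tested, with a median of 1.13. Of the mitochondrial partners 2 of 4 did, with a median of 0.38. Of the death receptors and their adaptors 2 of 6 did, with a median of -0.36, and of the other Bcl2 family genes 2 of 9 did, with a median of -0.22. Of the members 3 of 7 did, with a median of -0.32, and of all 15139 such genes 39.5% did, with a median of -0.34.

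**Figure D4:**
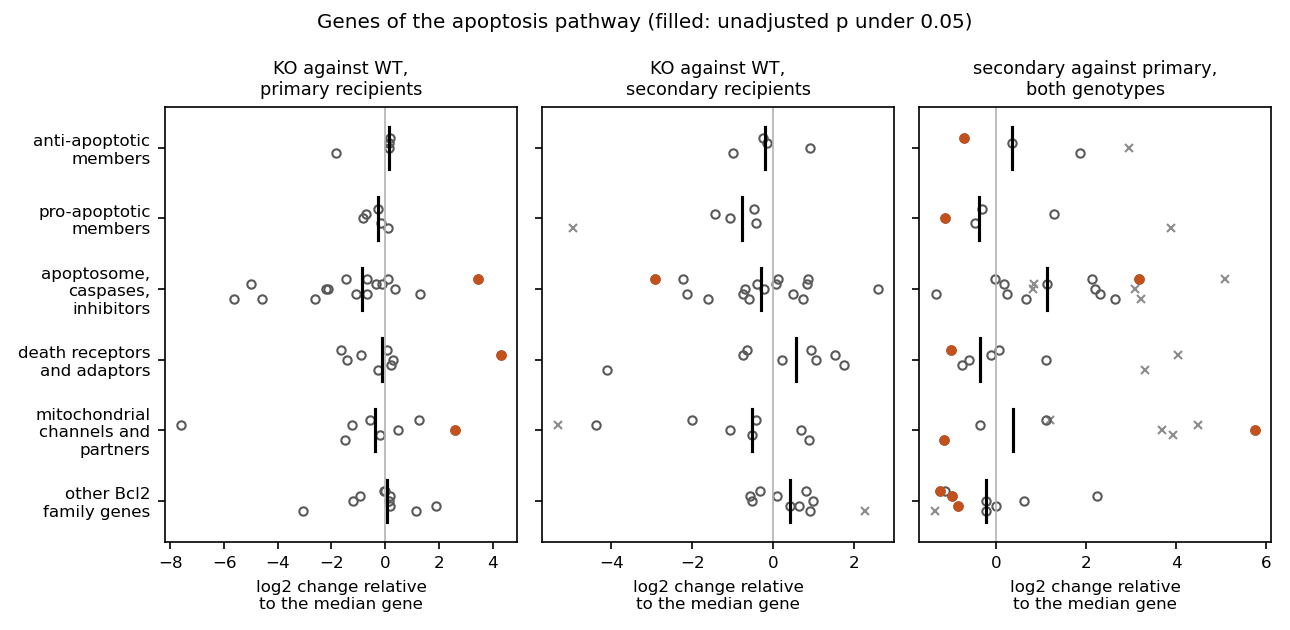
Log2 change relative to the median gene (x axis) of each member and each tested pathway gene, by list (y axis), in the same 3 comparisons. Crosses are genes that passed the filter on dim probes through 1 side of that comparison alone. Huwe1 passed through primary recipients by another probe than the one plotted, so its filled point in the recipient comparison is not read as a test. The line is the median of the list's other genes, and filled points have an unadjusted limma p under 0.05. In secondary against primary recipients the apoptosome list has its median at 1.13 and the other Bcl2 family genes have theirs at -0.22.

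For the 5 members well above background on all 8 arrays, the 2 genes with the most similar pattern over those arrays, among 17050 candidates, were named by Pearson's r. For Bcl2 they were Psapl1 (r = 0.993) and Il31 (0.990), for Bcl2l1 Lilra5 (0.977) and Mtag2 (0.966), and for Bcl2l11 Nrk (0.960) and Arid5b (0.954). For Bak1 they were Trpt1 (0.977) and Plcd3 (0.974), and for Bad Rps4x and Rbm5 (both 0.966). These are descriptions over 8 arrays that share their scaling, chosen as the highest of many.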

How the data were processed

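RNA of sorted donor HSC was amplified by PCR from cDNA and labelled with Cy3, per the labels' protocols. The deposited scanner files hold spot intensity on a linear scale, from which background had been subtracted (software Agilent Feature Extraction, version 10.5.1.1, per the file headers). The authors' deposited value table was found, by setting it against the scanner values, to be each spot's ratio to the median of its array, and served as an alternative. Outlier spots were dropped, spots of a probe averaged, and the log2 intensity scaled to the array's 75th percentile. A gene is its probe with the highest mean, and was tested if both arrays of some group had a probe of it well above background. limma 3.58.1 (R 4.3.3) was fitted over all 22905 genes with Benjamini-Hochberg adjustment, in 1 fit of 4 groups or, over both genotypes or recipients, an additive model. It was also run on simulated data with known changes set in, which does not show that changes of the sizes given here would be found. Arrays do not give depth, and their number limits the precision. Pathway genes described are among the up to 5 per comparison of lowest unadjusted p under 0.05, and not every comparison is described. The 5 that were lower in secondary recipients over both genotypes are named besides. Members and lists were chosen with earlier results of these data known. Alternatives covered background, scaling, filter, probes, blocks and left-out arrays.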

Additional observations from a re-analysis of the deposited data

Results flagged for a closer look

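Within each genotype and within each kind of recipient, the 4 arrays of a member were searched for an array far from the other 3. Of 36 such groups, 3 had one, and all 3 were groups of 1 genotype. Chance gives about 1 in 20 for arrays of a like kind. Each group here mixes recipients or genotypes and shares arrays with other groups, so that rate is only a guide. Bcl2l1 stood at 0.05 on KO secondary replicate 2, while the other KO arrays lay at 0.79 to 0.89. Bcl2l2 stood at 1.48 on the same array, against -3.50 to -2.71 on the other KO arrays. Bad stood at 1.19 on WT primary replicate 2, a dim array, against -1.76 to -1.29 on the other WT arrays.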

How the results depend on the processing

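No member passed under any of the 20 other settings, where the lowest adjusted p was 0.128 (limma). Looked at were 37 changes of single members. All members were taken for KO against WT in each kind of recipient, and for secondary against primary over both genotypes. For KO against WT over both recipients and the interaction, only changes beyond 1 log2 unit were taken. For secondary against primary in each genotype, only Bid, Bcl2l2 and Bax were. Of the 37, 16 kept their sign under all settings, and since large changes were chosen, this is not a share of all changes. Among the 16 was Bid in KO against WT in secondary recipients and in secondary against primary WT cells. Bid passed the filter on dim probes only through WT secondary cells, the group where it is high, so its kept sign is not read as support. Over all genes, secondary against primary recipients over both genotypes went from 0 calls to 1 with normexp, 204 with quantile normalization, 367 with the percentile over detected probes, 30 with the mean of probes, 271 with the change tested relative to the median gene, 44 with slide as a random block and 76 without the 2 dim arrays. KO against WT in primary recipients had 0 to 541 calls when 1 array was left out, the most without WT primary replicate 1. The causes were not tested.

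With the mean of all probes, sign changes in KO against WT in primary recipients were Bcl2 (0.18 to -0.61), Bcl2l1 (0.13 to -0.49), Bcl2l2 (0.14 to -0.09), Mcl1 (-1.83 to 1.23) and Bcl2l11 (-0.25 to 0.25). In secondary recipients they were Bcl2l2 (0.91 to -1.27), Bcl2l11 (-0.49 to 0.65), Bak1 (-1.06 to 0.41) and Bad (-0.42 to 0.92, but -0.41 without its opposite-strand probe). In secondary against primary recipients over both genotypes they were Bcl2 (-0.72 to 0.62) and Bak1 (-1.14 to 0.13). Without the 2 dim arrays, primary KO against WT turned for Bcl2 (-0.01), Bax (0.01) and Bid (-0.33), and secondary against primary turned for Mcl1 (-0.17) and Bad (1.04) over both genotypes. Quantile normalization turned Bcl2l2 (-1.89) and Bad (0.01) in primary and Bcl2l1 (0.18) in secondary recipients, and Bcl2 (0.30) over both genotypes. Normexp turned Bax (0.08) and Bid (-0.12) in primary recipients, and secondary against primary for Bcl2 (0.33) and Bad (0.12). With genes detected on all 8 arrays, where the 5 remaining members were Bcl2, Bcl2l1, Bcl2l11, Bak1 and Bad, Bcl2l11 (0.23) and Bad (0.08) turned over both genotypes.

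Leaving out 1 array leaves 1 in its group, which the fit assumes to vary like the other groups. With 1 array left out, the ranges of members that changed sign were, in KO against WT in primary recipients, Bcl2 -0.11 to 0.46, Bcl2l1 -0.30 to 0.72, Bcl2l2 -0.76 to 0.94, Mcl1 -4.77 to 1.0, Bcl2l11 -1.31 to 0.70, Bax -1.38 to 0.29, Bak1 -1.64 to 0.31, Bad -1.62 to 1.60 and Bid -0.90 to 1.47. The ranges were, in KO against WT in secondary recipients, Bcl2l1 -1.06 to 0.64, Bcl2l2 -1.13 to 2.99, Bcl2l11 -2.04 to 0.97 and Bad -1.12 to 0.32. In secondary against primary KO cells the range was Bid -0.89 to 3.54. In secondary against primary recipients over both genotypes the range was Bcl2l1 -0.04 to 0.65, Bcl2l11 -0.96 to 0.23 and Bad -1.17 to 0.31.

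The replicate numbers are shared only as numbers: the deviations of same-numbered arrays correlated at -0.0262 to 0.149 between groups. With a replicate block, 0 genes passed in each comparison, and all 37 changes kept their sign. Slide as a random block could be fitted only over both genotypes or recipients, and was not run for the other comparisons. Signal over background limits Bid on all 4 primary arrays and KO secondary replicate 2, Bcl2l2 on both dim arrays, and Mcl1 and Bax on KO primary replicate 2.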
